A study of Homo sapiens with 16 samples.

Results

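Broad acetylated domains are long, unbroken stretches of chromatin marked by histone H3 acetylated at lysine 27 (H3K27Ac). They were taken as the H3K27Ac regions of the authors' table whose end minus start was 5000 bp or more, and 2763 of 195421 H3K27Ac regions met this minimum. The study applied chromatin immunoprecipitation and sequencing to DKO and HCT116 cells to ask how DNA methylation, through CTCF and cohesin, bears on the choice of polyadenylation site. HCT116 is a colorectal carcinoma cell line, and DKO is a line derived from it by disrupting DNMT1 and DNMT3B, which encode DNA methyltransferases. Both lines were grown in the same medium, and the labels give no treatment. Each line had 1 library for each of 7 targets: H3K27Ac, CTCF, the cohesin subunits RAD21 and SMC1, and RNA polymerase II in the forms Pol2Ser5, Pol2Ser2 and TotalRNAPol2. For TotalRNAPol2 the antibody label names Pol2Ser5, against the title, and the title was followed.

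H3K27Ac is a mark of active promoters and enhancers, and long acetylated stretches are a known feature of highly transcribed genes and of clustered enhancers. CTCF is a zinc finger protein found at insulators and at the boundaries of chromosome domains, and cohesin is a ring-shaped complex that is halted at many CTCF sites and holds chromatin loops. RNA polymerase II carries phosphate on serine 5 of its C-terminal repeat early in transcription and on serine 2 during elongation.

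The ratio used throughout is M, the authors' log2 ratio of normalized read density, DKO over HCT116. A is the mean log2 density of both lines. Read numbers are the whole reads recovered from M and A, in 1 counting window per region: 2 kb wide for H3K27Ac and the polymerase tables and 1 kb wide for CTCF, RAD21 and SMC1. Whether that window lies at the midpoint or the summit of a region could not be settled from the files, so the M of a long domain describes 1 stretch of it at a position that is not known. Regions with M of at least 1 are called higher in DKO and those with M of at most -1 higher in HCT116, so a call stands for a 2-fold difference. Those with M between -0.5 and 0.5 are called similar. Each target was immunoprecipitated once from each line, so nothing here has a replicate check and the lines were not tested against each other. The 95% intervals given cover only counting error or the spread of regions: PCR copies are not separate molecules, and regions of 1 library do not replicate it. Line and library coincide for every target, so a difference between the lines and one between the libraries cannot be told apart. Coordinates are those of the authors' files on hg19. No hg19 annotation was used here, so domains are named by position and not by gene.

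The domains made up 1.41% of H3K27Ac regions and covered 21.71 Mb, which was 15.3% of all acetylated sequence. Their median length was 6572 bp and the middle 50% lay between 5599 and 8579 bp. Most were near the lower end: 1040 measured 5 to 6 kb, 896 measured 6 to 8 kb, and only 52 reached 20 kb. Just inside the minimum, the region chr1:6637795-6642795 had 600 reads in DKO against 611 in HCT116 (M 0.044). The next, chr17:77822322-77827323, had 346 reads in DKO against 452 in HCT116 (M -0.28), and chr9:139922880-139927883 had 245 in DKO against 305 in HCT116 (M -0.18). Within 3 bp under the minimum, chr19:51433280-51438279 had 51 reads in DKO against 455 in HCT116 (M -2.94). Also just outside it were chr19:907095-912093, with 328 reads in DKO against 434 in HCT116 (M -0.29), and chr19:11252047-11257044, with 826 in DKO against 1106 in HCT116 (M -0.39). The minimum therefore cut through a continuous range of lengths: 4712 regions reached 4000 bp and 827 reached 8000 bp.

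Nearly all domains were acetylated in both lines. The authors called 2677 of them in both (96.9%, Wilson interval 96.2 to 97.5%), 27 in DKO only (0.977%) and 59 in HCT116 only (2.14%). Regions of 2000 bp to under 5000 bp were called in both lines in 92.3% of cases, and regions under 2000 bp in 26.2%. A region called in both lines is, per its group in the table, merged from both calls, so it can be longer than either call alone. The 27 domains called in DKO only had between 251 and 1024 reads in DKO, with a median of 471. In HCT116 the same 27 had between 8 and 82 reads, with a median of 33, and their M lay between 2.74 and 6.09. The 59 domains called in HCT116 only had between 0 and 63 reads in DKO, with a median of 21, against 202 to 984 in HCT116, with a median of 521. Their M lay between -7.27 and -2.04, so the ranges of reads of the lines did not overlap in either group. That is what the call itself selects. M of the domains called in both lines ran from -4.58 to 4.56, and domains with large ratios were thus mostly not ones that were missing in a line.

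**Figure D1:**
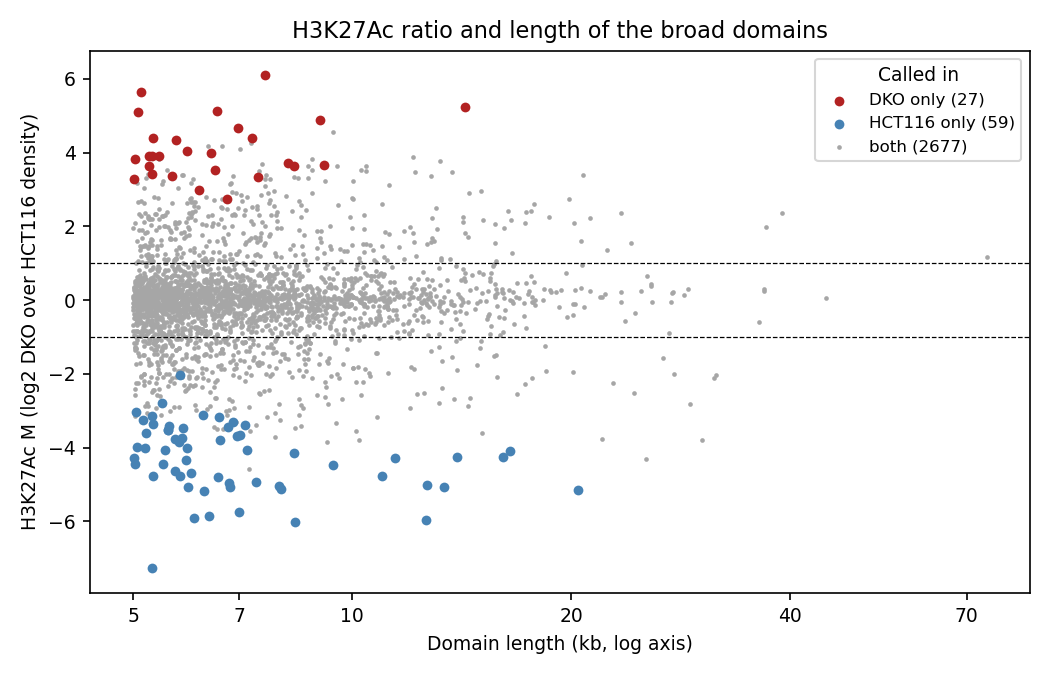
M of H3K27Ac (y axis, log2 DKO over HCT116 density) against length (x axis, kb, log scale) for the 2763 domains, 1 point each, coloured by the line in which the authors called them; dashed lines mark a 2-fold difference. The points are centred near 0 at every length, the 27 called in DKO only lie at 2.74 or more, the 59 called in HCT116 only at -2.04 or less, and many domains called in both lines also lie past the dashed lines.

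The domains were centred on equal density but spread widely. Their median M was 0.00 (order-statistic interval -0.03 to 0.03), with quartiles at -0.55 and 0.43. Of the 2763 domains, 402 (14.5%, 13.3 to 15.9%) were higher in DKO and 447 (16.2%, 14.9 to 17.6%) were higher in HCT116. Over all 195421 H3K27Ac regions these shares were 11.0% and 10.4%. Another 1394 domains (50.5%) were similar and 520 lay between the classes. At 4-fold, 199 domains were higher in DKO and 198 in HCT116. The balance of the directions turned with the setting: without the authors' level-dependent scaling 15.5% were higher in DKO and 15.3% in HCT116.

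These differences were large against counting error. The median domain had 581 reads in DKO against 626 in HCT116, while the median region under 2000 bp had 74 in DKO against 89 in HCT116. The exact Clopper-Pearson interval of M had a median half-width of 0.18. For all 849 domains past 2-fold it excluded a 1.5-fold difference. These domains were chosen by the same M, so with intervals this narrow that outcome was nearly set by the choice. The typical domain higher in DKO had 636.5 reads in DKO against 145.5 in HCT116, as medians over domains. These medians were 786 in DKO and 795.5 in HCT116 for similar domains, and 129 in DKO and 610 in HCT116 for domains higher in HCT116. The class of similar domains was therefore also the one with the highest mean density, at a median A of 8.63, beside 7.24 in domains higher in DKO and 7.03 in domains higher in HCT116. A domain that is low in 1 line has a lower A, so part of this order follows from how A is formed.

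Among regions of like A, longer ones more often differed between the lines, although the choice by A itself bears on this. Within the middle range of the domains' A, 7.04 to 8.82, 16.3% of 1381 domains were higher in DKO (14.4 to 18.3%) and 15.1% higher in HCT116 (13.3 to 17.1%). In the same range of A, 5.44% of 6972 regions of 2000 bp to under 5000 bp were higher in DKO and 5.9% in HCT116. Of 3021 regions under 2000 bp there, 2.68% were higher in DKO and 2.12% in HCT116. The standard deviation of M over regions in that range was 1.18 in domains, 0.678 in regions of 2000 bp to under 5000 bp and 0.479 in shorter ones. The counting window bears on this comparison. It covered a median of 30.4% of a domain, and it was wider than any region under 2000 bp, so A of such a region also takes in its flanks.

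**Figure D2:**
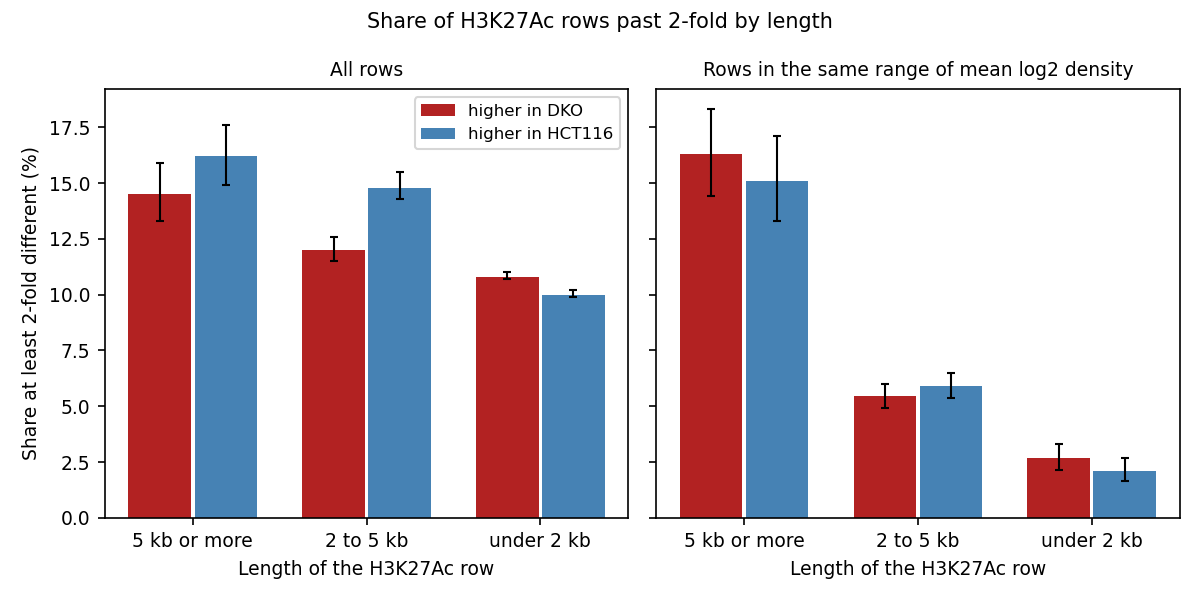
Share of H3K27Ac regions at least 2-fold higher in DKO (red) or in HCT116 (blue), in percent, for 3 classes of length, over all regions (left) and over regions with A between 7.04 and 8.82 (right); bars start at 0 and whiskers are Wilson 95% intervals over regions. In the left panel the shares for domains are 14.5% and 16.2%; in the right panel they are 16.3% and 15.1% and stand above those of both shorter classes.

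Length beyond the minimum added little order. Of the 1040 domains of 5 to 6 kb, 13.3% were higher in DKO and 15.9% in HCT116. Of the 52 domains of 20 kb or more, 19.2% were higher in DKO (10.8 to 31.9%) and 23.1% higher in HCT116 (13.7 to 36.1%). Those intervals are wide and include the shares of the shortest class.

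The 8 domains with the highest M were 7 called in DKO only and 1 called in both lines. The highest, chr5:159889547-159897137, had 945 reads in DKO against 15 in HCT116 (M 6.09, counting interval 5.46 to 7.03). At its strongest inner regions Pol2Ser5 had 374 reads in DKO against 7 in HCT116 (M 4.79), and TotalRNAPol2 had 334 in DKO against 25 in HCT116 (M 3.29). Cohesin differed less there: RAD21 had 80 reads in DKO against 13 in HCT116 (M 2.08), and SMC1 had 97 in DKO against 20 in HCT116 (M 1.91). The domain held no CTCF region. It was thus acetylated, bound by early-stage polymerase and bound by cohesin in DKO, with few reads of any of these in HCT116.

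The others at this end were not alike in what they held. At chr11:37523271-37528391 H3K27Ac had 372 reads in DKO against 8 in HCT116 (M 5.65), and RAD21 had 74 in DKO against 5 in HCT116 (M 3.11). Its Pol2Ser5 had 31 reads in DKO against 17 in HCT116 (M 0.12), and no Pol2Ser2 or TotalRNAPol2 region lay inside. The counting interval of that Pol2Ser5 ratio, -0.75 to 1.10, includes 0, and that of RAD21, 2.07 to 5.02, does not. At chr10:44499204-44513522 H3K27Ac had 864 reads in DKO against 25 in HCT116 (M 5.25) and Pol2Ser5 had 236 in DKO against 6 in HCT116 (M 4.34). At chr13:80559819-80566335 H3K27Ac had 471 reads in DKO against 15 in HCT116 (M 5.12) and RAD21 had 106 in DKO against 6 in HCT116 (M 3.45). Polymerase dominated the inner ratios in the first of these and cohesin in the other.

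A pair of these domains lay close together on chromosome 8. At chr8:13208736-13213812 H3K27Ac had 493 reads in DKO against 16 in HCT116 (M 5.09), and at chr8:13221199-13230239 it had 888 in DKO against 33 in HCT116 (M 4.89). The highest domain with a strong CTCF ratio was chr19:56599802-56606768, where H3K27Ac had 1024 reads in DKO against 44 in HCT116 (M 4.67) and CTCF had 114 in DKO against 11 in HCT116 (M 3.09). The only one of the 8 called in both lines, chr2:113565666-113575066, had 1397 H3K27Ac reads in DKO against 64 in HCT116 (M 4.56). It held no CTCF region, and its RAD21 had 136 reads in DKO against 11 in HCT116 (M 3.10). In all, 5 of these 8 domains held no CTCF region and 4 held no Pol2Ser2 region, while all 8 held RAD21, SMC1 and Pol2Ser5.

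The 8 domains with the lowest M were all called in HCT116 only, and 5 of them lay on chromosome 4. At chrX:28605498-28610799 H3K27Ac had 0 reads in DKO against 202 in HCT116, at least 38.6-fold lower in DKO if 3 reads are taken as the limit of the DKO library and 1 read is added to both counts, as in the authors' scale. CTCF inside it had 2 reads in DKO against 64 in HCT116 (M -4.74), and RAD21 had 5 in DKO against 30 in HCT116 (M -2.98). Of all domains it was the only one with 0 reads in a library. On the same chromosome chrX:28519255-28527591 had 3 H3K27Ac reads in DKO against 323 in HCT116 (M -6.03), with 3 Pol2Ser5 reads in DKO against 125 in HCT116 (M -5.69). At chr10:28405027-28417679 there were 9 reads in DKO against 732 in HCT116 (M -5.96), with 14 TotalRNAPol2 reads in DKO against 136 in HCT116 (M -3.26).

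On chromosome 4 the lowest domains came in groups. In the first group, chr4:11613326-11619380 had 7 H3K27Ac reads in DKO against 575 in HCT116 (M -5.91). Its neighbours chr4:11542925-11549287, with 9 reads in DKO against 686 in HCT116 (M -5.86), and chr4:11503255-11510241, with 12 in DKO against 811 in HCT116 (M -5.74), were as low. Pol2Ser5 inside this last domain had 4 reads in DKO against 90 in HCT116 (M -4.89). Initiating polymerase was therefore low in DKO where acetylation was low. Further along, chr4:31020956-31027212 had 13 reads in DKO against 599 in HCT116 (M -5.19), and chr4:30854446-30874906, 20460 bp long, had 12 in DKO against 541 in HCT116 (M -5.14).

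**Figure D3:**
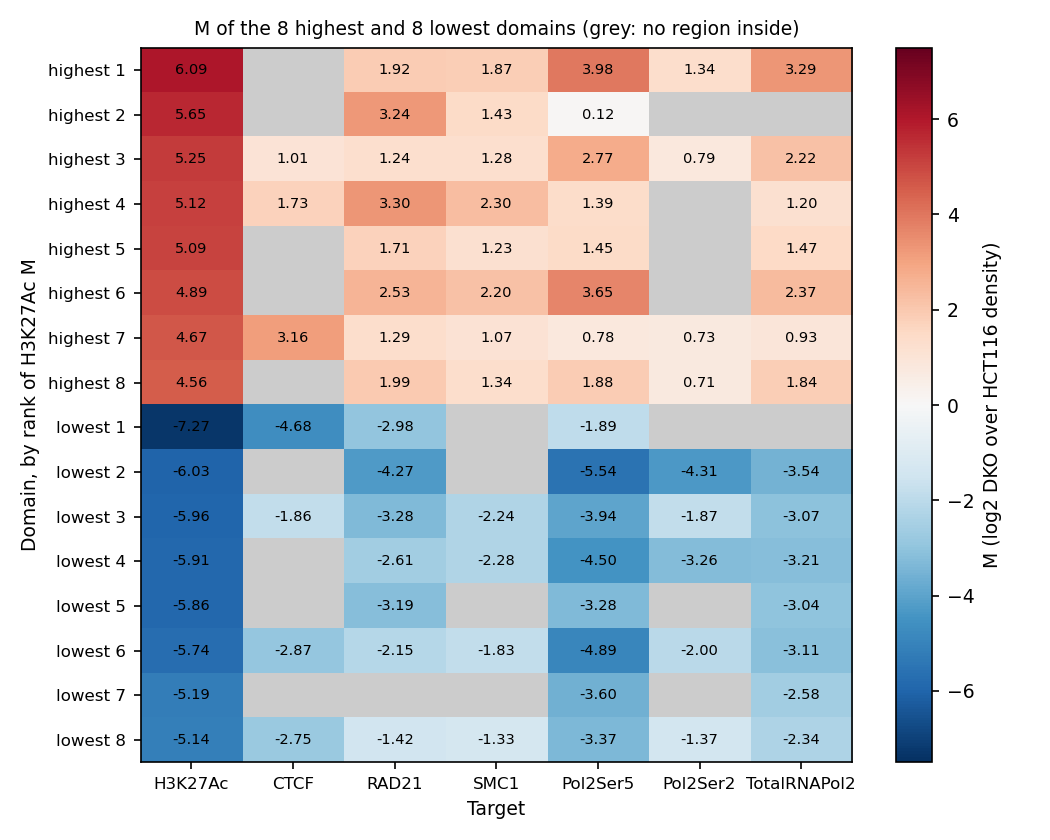
M (colour and printed value, log2 DKO over HCT116 density) of H3K27Ac and median M of the regions of 6 other targets inside the 8 domains with the highest and the 8 with the lowest H3K27Ac M, 1 domain per line; grey marks a target with no region inside. All inner medians have the sign of the domain; the one nearest 0 is 0.12, for Pol2Ser5 in the second highest domain, the lowest is -5.54, for Pol2Ser5 in the second lowest, and 9 of the 16 CTCF fields are grey.

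Of the 6 longest domains 3 were similar and 3 higher in DKO. The longest, chr22:30584142-30658783, spanned 74641 bp and had 200 reads in DKO against 101 in HCT116 in its window (M 1.17, 0.83 to 1.54). It held 25 CTCF, 51 RAD21, 51 SMC1, 28 Pol2Ser5, 18 Pol2Ser2 and 20 TotalRNAPol2 regions, with median M of -0.095 for CTCF and 1.31 for Pol2Ser5. It was the domain with the most CTCF and cohesin regions, and these medians run over its whole length while its acetylation ratio comes from 1 window. At chr3:111613633-111658490, 44857 bp long, H3K27Ac had 1363 reads in DKO against 1324 in HCT116 (M 0.043, -0.07 to 0.15). Polymerase was lower in DKO along this domain, whose acetylation was equal in its window: the median M was -1.45 over 28 Pol2Ser5 regions, -1.48 over 37 Pol2Ser2 regions and -1.69 over 35 TotalRNAPol2 regions. The highest values among those regions were -0.81, -0.76 and -0.92, so every polymerase region in it was lower in DKO under the authors' scaling.

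In other long domains too the acetylation ratio of the window and the polymerase ratios differed. They can come from different positions in the domain, and the ratio of acetylation along its length was not tested. In chr17:57898306-57937344, 39038 bp long, H3K27Ac had 321 reads in DKO against 70 in HCT116 (M 2.37, 2.01 to 2.78). Its strongest Pol2Ser2 region had 594 reads in DKO against 1816 in HCT116 (M -2.66), and its strongest TotalRNAPol2 region 927 in DKO against 1692 in HCT116 (M -2.45). The median over its 28 Pol2Ser2 regions was 0.57, so elongating polymerase was lower in DKO at some places in this domain and higher at others. In chr7:130577150-130614211, H3K27Ac had 628 reads in DKO against 172 in HCT116 (M 1.98), while the median M was -1.42 over 11 Pol2Ser2 regions and -1.42 over 6 TotalRNAPol2 regions. In chr22:37698519-37735343, with 458 reads in DKO against 399 in HCT116 (M 0.30), the median of 11 Pol2Ser5 regions was -1.75. In chr20:30277187-30313979, with 1541 reads in DKO against 1295 in HCT116 (M 0.25), the median of 27 Pol2Ser2 regions was -1.01. The other polymerase medians there were -0.47 for Pol2Ser5 and -0.70 for TotalRNAPol2. In each of these 4 domains at least 1 polymerase median lay below the acetylation ratio under the authors' scaling. For Pol2Ser2 and TotalRNAPol2 that scaling lowered M where reads were many. In the domain on chromosome 20 the strongest TotalRNAPol2 region had 637 reads in DKO against 429 in HCT116 (M -0.61). Scaling by a constant was not tested on these medians.

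The domains with the highest A hardly differed between the lines, which the ranking itself favours. A is the mean of both lines, so a domain comes near the top only where both lines are high. The highest A belonged to chr8:145006343-145029772, with 2686 reads in DKO against 2686 in HCT116 (M -0.06, -0.14 to 0.02). Next came chr17:79476334-79487948, with 2420 reads in DKO against 2195 in HCT116 (M 0.095), and chr8:145731096-145739112, with 2277 in DKO against 2152 in HCT116 (M 0.039). The 5 highest by A all had M between -0.06 and 0.13. Their inner polymerase was not all as even: at chr12:52534103-52552393, with 2169 H3K27Ac reads in DKO against 2094 in HCT116 (M 0.012), the median M was -0.87 over 4 Pol2Ser5 regions. At chr12:7066891-7075351, with 2218 reads in DKO against 1979 in HCT116 (M 0.13), the CTCF median was 0.54.

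Among the 50 longest domains, the 5 with M nearest 0 held inner regions with a wide range of ratios. At chr11:118777727-118803574 H3K27Ac had 1590 reads in DKO against 1620 in HCT116 (M -0.04), and the inner medians lay between -0.67 (Pol2Ser5) and 0.03 (CTCF). At chr3:98678438-98705885 it had 841 reads in DKO against 895 in HCT116 (M -0.05), but the medians were -1.22 over 3 CTCF regions, -1.46 over 11 Pol2Ser2 regions and 0.68 over 10 RAD21 regions. At chr19:2044013-2066076 it had 711 reads in DKO against 704 in HCT116 (M 0.071), and the RAD21 median was -0.89. CTCF and cohesin medians took either sign in these 5 domains. Under the authors' scaling the 15 polymerase medians were all negative, between -1.69 and -0.12. For Pol2Ser2 and TotalRNAPol2 that scaling changed with the level of a region and lowered M where reads were many. In the domain with the highest A, also among these 5, the strongest TotalRNAPol2 region had 551 reads in DKO against 295 in HCT116 (M -0.17). Scaling by a constant was not tested on these medians, so no direction is given for the smaller Pol2Ser2 and TotalRNAPol2 ones.

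Differences in acetylation came in runs of neighbouring domains. Between neighbours less than 1 kb apart, Spearman's rho of M was 0.751 over 187 neighbouring pairs, and where both were past 2-fold 42 of 42 had the same direction. At 10 to 50 kb the rho was 0.432 over 639 pairs, with 73 of 79 in the same direction. Beyond 1000 kb it was 0.078 over 458 pairs, with 40 of 66 in the same direction. The points of these correlations share their libraries, and neighbouring windows less than 2 kb apart can share reads. Joined across gaps under 50 kb, 1216 domains fell into 269 runs of 3 or more, of which 13 were wholly higher in DKO, 19 wholly higher in HCT116 and 17 held both directions.

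The following runs were picked after their values were seen. The run chr4:30715641-30960013 held 11 domains, all higher in HCT116, with 12 to 73 reads each in DKO and 303 to 1117 in HCT116 and M between -5.14 and -3.26. Every other target was lower in DKO by its median over the run: -3.13 for Pol2Ser5, -2.43 for TotalRNAPol2, -1.46 for Pol2Ser2, -1.34 for RAD21, -1.32 for SMC1 and -1.22 for CTCF. For CTCF the median does not describe the total. Its 15 regions together had 1006 reads in DKO against 937 in HCT116, not scaled for depth. In chr12:76026177-76427210, 10 of 13 domains were higher in HCT116, and in chr1:8078814-8275224, 9 of 11 were. Polymerase had the lowest medians in both: -2.2 for TotalRNAPol2 and -2.16 for Pol2Ser5 in the run on chromosome 12, and -2.67 for Pol2Ser5 in the run on chromosome 1.

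The largest run wholly higher in DKO held 6 domains. In chr9:114724131-114834354 all 6 domains were higher in DKO, with 331 to 863 reads in DKO, 47 to 261 in HCT116 and M between 1.72 and 4.33. Its medians were 0.95 for RAD21 and 0.98 for Pol2Ser5, but -0.19 over 9 CTCF regions. In chr17:57823557-57937344 all 5 domains were higher in DKO, while the median was -1.08 over 21 CTCF regions. Those regions lay anywhere in the run, gaps included, so lower CTCF is not placed at the acetylated windows. In the longest domain of this run the CTCF median was -0.98 over 11 regions. Its strongest CTCF region had 290 reads in DKO against 330 in HCT116 (M -0.09, -0.32 to 0.14). In chr21:30534109-30607344 all 5 domains were higher in DKO, with M between 1.78 and 3.52, a RAD21 median of 1.07 and a CTCF median of -0.49 over 4 regions. In chr3:194820734-194921682 all 5 were higher in DKO and CTCF followed, with a median of 0.79 over 16 regions. In chr2:113538644-113575066 all 3 were higher in DKO, the RAD21 median was 1.86 over 13 regions and no CTCF region was called in the run.

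Chromosomes differed in the direction of their domains. On chromosome 4, 45 of 93 domains were higher in HCT116 (48.4%, 38.5 to 58.4%), beside 22.8% of the shorter H3K27Ac regions there. These 45 domains lay in 23 separate groups, 11 of them in 1 group, so a single locus did not make up the count. On chromosome 21, 18 of 37 domains were higher in DKO (48.6%, 33.4 to 64.1%), beside 17.1% of shorter regions, in 9 separate groups. Chromosome 14 had 28 of 88 domains higher in DKO (31.8%), beside 10.9% of shorter regions. Chromosomes 12 and 2 leaned to HCT116, with 45 of 152 domains (29.6%) and 43 of 143 domains (30.1%), beside 12.6% and 15.9% of shorter regions. The number of domains ran from 18 on chromosome 13 to 271 on each of chromosomes 1 and 19, with 0 on Y.

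Nearly every domain held cohesin and polymerase. A region was counted as inside when its midpoint lay in the domain. RAD21 was found in 98.8% of domains, SMC1 in 97.9%, Pol2Ser5 in 97.8% and TotalRNAPol2 in 97.3%, while CTCF was found in 89.6% and Pol2Ser2 in 86.5%. The median domain held 4 RAD21, 4 SMC1, 3 CTCF, 3 Pol2Ser5, 3 Pol2Ser2 and 3 TotalRNAPol2 regions. All 6 targets were present in 2129 domains (77.1%). The targets most often lacking alone were Pol2Ser2, missing from 236 domains that held the other 5, and CTCF, missing from 156 such domains. Only 15 domains held no polymerase region and 12 held none of CTCF, RAD21 or SMC1.

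Per length, domains and acetylated regions of 2000 bp to under 5000 bp held these targets at like densities. CTCF regions numbered 3.79 per 10 kb in domains and 4.13 per 10 kb in H3K27Ac regions of 2000 bp to under 5000 bp. RAD21 regions numbered 5.66 per 10 kb in domains and 5.61 in the shorter regions, and TotalRNAPol2 regions 4.30 in domains and 4.94 in the shorter regions. Beside regions of that length, the higher share of domains that held a target thus went with the length of the domains. Regions under 2000 bp were less dense in some targets, with 4.875 per 10 kb for RAD21, 4.66 for SMC1, 3.645 for Pol2Ser5 and 3.653 for Pol2Ser2. The domains had 5.66, 5.70, 4.42 and 4.75. For CTCF and TotalRNAPol2 these short regions were near the domains, at 3.69 and 4.36. Density rose at the domain edge and rose further inside it. RAD21 regions per 10 kb numbered 2.48 in the last 1 kb outside an edge. They numbered 4.47 in the first 1 kb inside and 6.40 at 2 to 3 kb inside. In these 3 bins SMC1 had 2.14, 4.265 and 6.59, and CTCF had 1.86, 3.145 and 4.30. The rise was shallower for polymerase, with 3.05, 3.91 and 4.99 for Pol2Ser5 and 3.57, 4.55 and 5.03 for Pol2Ser2.

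**Figure D4:**
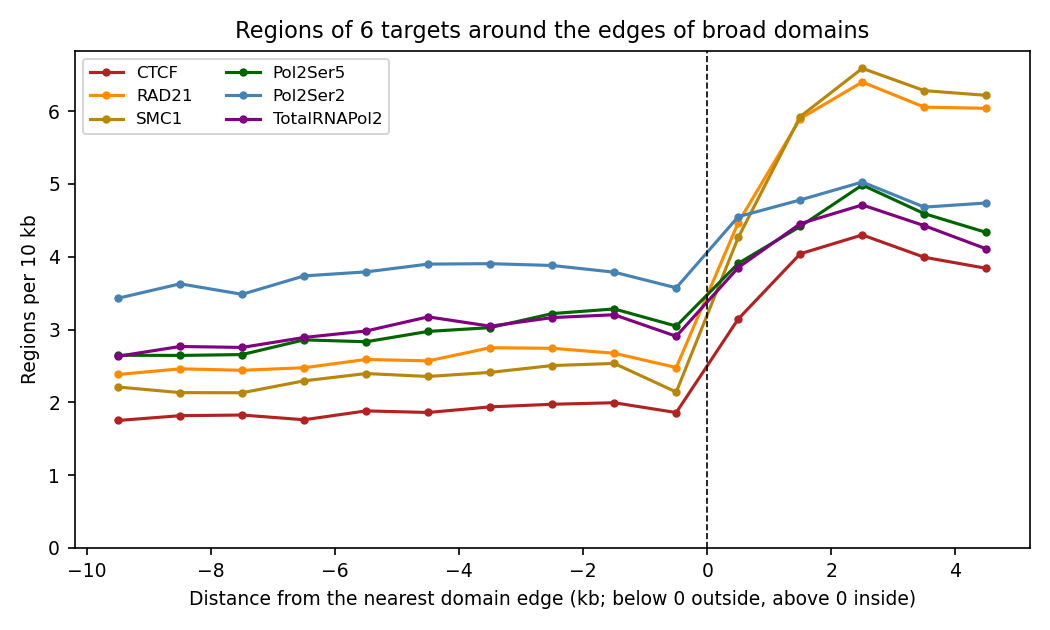
Regions of 6 targets per 10 kb (y axis) in 1 kb bins by distance from the nearest domain edge (x axis, kb, below 0 outside and above 0 inside), over all 2763 domains and both edges. All 6 lines step up at the edge and rise further inside it, and RAD21 and SMC1 rise most, to 6.40 and 6.59 at 2 to 3 kb inside.

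CTCF inside domains was higher in DKO at more regions than in HCT116, as it was over all CTCF regions. The share higher in DKO was smaller inside domains. Of 8234 CTCF regions inside, 15.2% were higher in DKO and 5.79% in HCT116, beside 20.1% and 6.33% of all 171693 CTCF regions. Inside domains higher in DKO the median CTCF M was 0.56 (0.51 to 0.63). It was 0.26 (0.24 to 0.28) in similar domains and -0.28 (-0.36 to -0.20) in domains higher in HCT116. Over CTCF regions called in both lines it was 0.25 in domains higher in DKO and -0.095 in those higher in HCT116. CTCF thus followed the acetylation of its domain, but loosely: Spearman's rho between the M of a domain and the median M of its CTCF regions was 0.34 over 2475 domains. Of 333 domains higher in DKO that held CTCF, 101 (30.3%) had a CTCF median at least 2-fold higher in DKO, and 8 had one at least 2-fold higher in HCT116. Of 348 such domains higher in HCT116, 104 (29.9%) had a CTCF median at least 2-fold higher in HCT116.

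Cohesin had a closer rank relation to acetylation than CTCF. Of the RAD21 regions inside domains 7.32% were higher in DKO and 10.7% in HCT116, beside 13.7% and 8.7% of all RAD21 regions. Of the SMC1 regions inside, 7.11% were higher in DKO and 3.01% in HCT116, beside 9.36% and 4.67% of all. The RAD21 median was 0.58 (0.55 to 0.62) in domains higher in DKO, -0.25 (-0.27 to -0.23) in similar ones and -0.69 (-0.73 to -0.65) in domains higher in HCT116. For SMC1 these medians were 0.64 (0.61 to 0.67), 0.02 (0.00 to 0.03) and -0.42 (-0.46 to -0.39). In size they were well short of the 2-fold mark, but they rarely opposed it. None of the 2013 SMC1 regions in domains higher in DKO was at least 2-fold higher in HCT116, and 503 were at least 2-fold higher in DKO. In domains higher in HCT116, 264 of 1500 SMC1 regions were higher in HCT116 and 11 higher in DKO. The rho over domains was 0.549 for RAD21 and 0.59 for SMC1. The RAD21 median passed 2-fold in the direction of the domain in 96 of 397 domains higher in DKO (24.2%) and in 135 of 431 higher in HCT116 (31.3%). For SMC1 this held in 81 of 394 (20.6%) and 71 of 422 (16.8%). Over regions called in both lines, the medians in domains higher in DKO were smaller, at 0.32 for RAD21 and 0.26 for SMC1, and in domains higher in HCT116 they were -0.49 and -0.29.

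Much of the cohesin in domains lay away from CTCF. Of the 12287 RAD21 regions inside, 52.6% overlapped a CTCF region, beside 60.8% of those in H3K27Ac regions of 2000 bp to under 5000 bp and 64.4% of all RAD21 regions. For SMC1 the shares were 58.8%, 65.8% and 66.1%. Among domains higher in DKO the RAD21 median was 0.68 (0.63 to 0.73) at the 1156 regions without CTCF and 0.47 (0.41 to 0.53) at the 883 with it. Among domains higher in HCT116 it was -0.77 (-0.82 to -0.73) at the 911 regions without CTCF and -0.58 (-0.65 to -0.53) at the 707 with it. SMC1 had the same order, with medians of 0.67 without CTCF and 0.58 with it in domains higher in DKO, and of -0.57 and -0.27 in domains higher in HCT116. Cohesin regions without CTCF also had fewer reads, with RAD21 medians of 42 in DKO against 33 in HCT116, against 67 in DKO against 58 in HCT116 at those with CTCF. The part of this depth in the order was not tested.

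Polymerase showed the widest range between the classes of domain. Of the 9595 Pol2Ser5 regions inside, 16.8% were higher in DKO and 21.5% in HCT116, beside 14.9% and 21.0% of all Pol2Ser5 regions. Split by the domain, the Pol2Ser5 median was 1.14 (1.07 to 1.21) in domains higher in DKO, 0.05 (0.02 to 0.07) in similar ones and -2.07 (-2.16 to -2.0) in domains higher in HCT116. Over regions called in both lines it was 0.58 in domains higher in DKO and -1.17 in those higher in HCT116. In domains higher in HCT116 the median Pol2Ser5 region had 21 reads in DKO against 56 in HCT116, and 1314 of 1642 (80.0%) were at least 2-fold higher in HCT116. It had 83 reads in DKO against 21 in HCT116, in domains higher in DKO, where 870 of 1570 (55.4%) were at least 2-fold higher in DKO. The phosphorylated form found early in transcription was therefore the target that went with acetylation most closely, with a rho of 0.737 over 2703 domains.

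Pol2Ser2 and TotalRNAPol2 gave the same order with smaller medians. Of Pol2Ser2 regions inside, 18.2% were higher in DKO and 12.6% in HCT116, beside 18.6% and 10.9% of all. Of TotalRNAPol2 regions inside, 18.5% were higher in DKO and 22.5% in HCT116, beside 20.7% and 10.2% of all. The TotalRNAPol2 median was 1.03 (0.96 to 1.09) in domains higher in DKO and -1.71 (-1.76 to -1.65) in domains higher in HCT116, and the Pol2Ser2 median was 0.91 (0.84 to 0.98) and -0.93 (-1.02 to -0.84). For these targets the authors' scaling changed with the level of a region. Scaling by a constant instead changes M by a median of -0.31 over all Pol2Ser2 regions and of -0.40 over all TotalRNAPol2 regions. The change is not uniform: it rises with A, so it is positive at regions with many reads. In size the median change exceeds the medians of the similar domains, 0.21 for Pol2Ser2 and 0.11 for TotalRNAPol2, so no direction is given for those. Scaling by a constant does not turn the sign in the other classes. Over regions called in both lines the medians were 0.46 and -1.03 for TotalRNAPol2 and 0.38 and -0.37 for Pol2Ser2, in domains higher in DKO and higher in HCT116.

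**Figure D5:**
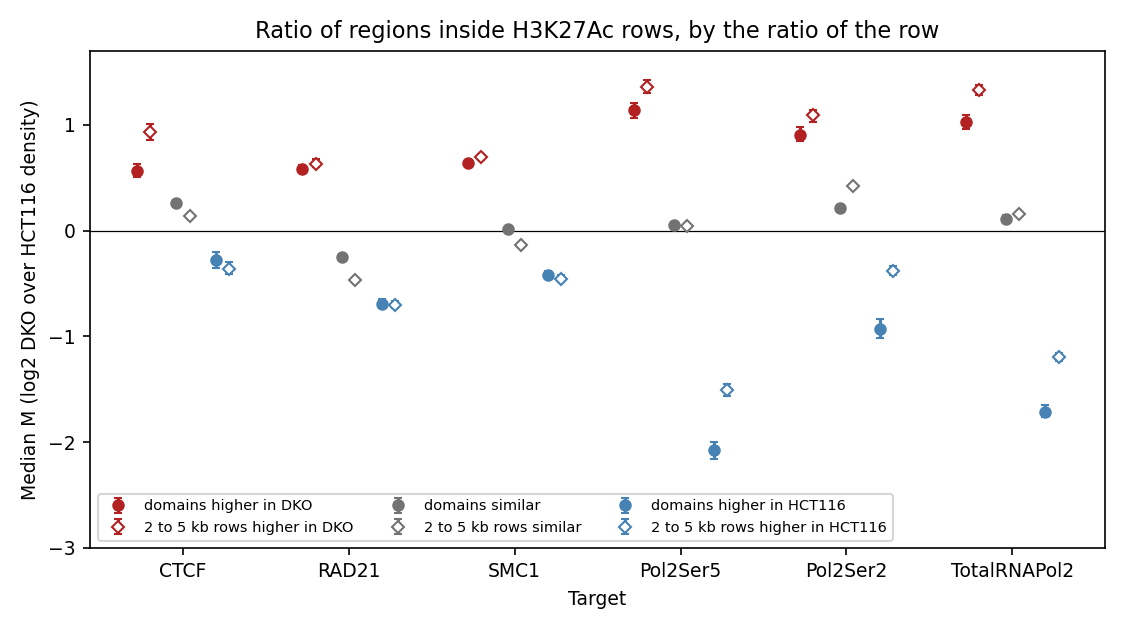
Median M (y axis, log2 DKO over HCT116 density) of the regions of 6 targets inside H3K27Ac domains (filled) and inside H3K27Ac regions of 2000 bp to under 5000 bp (open), for those higher in DKO (red), similar (grey) and higher in HCT116 (blue); whiskers are 95% order-statistic intervals over regions. For every target the red points lie above the grey and the blue below, and the blue polymerase points of the domains, at -2.07, -0.93 and -1.71, lie below those of the shorter regions, at -1.51, -0.38 and -1.19.

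Beside shorter acetylated regions of the same class, domains had lower polymerase medians at both ends under the authors' scaling. Scaling by a constant was not applied to the shorter regions. The part of the level-dependent scaling of Pol2Ser2 and TotalRNAPol2 in this contrast was therefore not tested. In H3K27Ac regions of 2000 bp to under 5000 bp that were higher in DKO, the median was 1.36 for Pol2Ser5, 1.33 for TotalRNAPol2 and 1.09 for Pol2Ser2. In those that were higher in HCT116 it was -1.51, -1.19 and -0.38. CTCF in regions of that length higher in DKO had a median of 0.94, against 0.56 in domains. The cohesin medians lay closer together: RAD21 had 0.58 in domains higher in DKO and 0.63 in the shorter regions, and SMC1 had 0.64 in domains and 0.69 in the shorter regions.

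Taken domain by domain, acetylation and polymerase differed together in many domains but not in all. In 246 of 392 domains higher in DKO with Pol2Ser5 (62.8%) the Pol2Ser5 median was at least 2-fold higher in DKO, and in 343 of 435 domains higher in HCT116 (78.9%) it was at least 2-fold higher in HCT116. All 3 polymerase tables passed 2-fold in the direction of the domain in 105 of 300 domains higher in DKO (35.0%) and in 136 of 330 higher in HCT116 (41.2%). Without TotalRNAPol2, whose antibody label goes against its title, Pol2Ser5 and Pol2Ser2 both passed in 125 of 303 (41.3%) and in 144 of 333 (43.2%). CTCF, RAD21 and SMC1 passed together in 21 of 331 domains higher in DKO and in 32 of 339 higher in HCT116. Every one of the 6 targets passed in 11 of 261 domains higher in DKO and in 17 of 264 higher in HCT116. Differences past 2-fold in all 7 tables at once were thus rare. The same count was not made for shorter regions. Few SMC1 regions passed 2-fold anywhere, with 9.36% of all higher in DKO and 4.67% in HCT116, which limits such joint counts.

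What the domains held also varied with their class. CTCF was present in 82.8% of domains higher in DKO (78.8 to 86.2%), in 77.9% of those higher in HCT116 (73.8 to 81.5%) and in 94.8% of similar ones (93.5 to 95.9%). It was thus absent from 69 of the domains higher in DKO (17.2%), from 99 of those higher in HCT116 (22.1%) and from 72 of the similar ones (5.16%). Pol2Ser2, the elongating form, was absent from 23.4% of domains higher in DKO, from 24.2% of those higher in HCT116 and from 7.6% of similar ones. All 6 targets were present in 64.9%, 59.1% and 85.5% of them. The similar domains also had the highest acetylation, and its part in this was not tested. CTCF regions numbered 3.22 per 10 kb in domains higher in DKO, 2.63 per 10 kb in those higher in HCT116 and 4.28 per 10 kb in similar ones.

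Domains of similar acetylation in their window also held regions that differed. Of the 1322 similar domains with CTCF, 26.9% held a CTCF region at least 2-fold higher in DKO and 9.15% one at least 2-fold higher in HCT116. For RAD21 the lean was the other way, with 11.0% and 26.5%, and for SMC1 the shares were 12.1% and 4.0%. Such shares grow with the number of regions in a domain. Per region, 13.7% of CTCF regions in similar domains were higher in DKO and 2.97% in HCT116, beside 20.1% and 6.33% of all. For RAD21 these were 3.45% and 8.6%, beside 13.7% and 8.7% of all, and for SMC1 3.86% and 0.954%, beside 9.36% and 4.67%. Under the authors' scaling, the 2 cohesin subunits thus leaned in opposite directions in domains of similar acetylation. Scaled by a constant, the median of all RAD21 regions moves by 0.14 and that of SMC1 by -0.014, which is to be set against the RAD21 median of -0.25 in these domains. The RAD21 lean was not particular to domains: in similar H3K27Ac regions of 2000 bp to under 5000 bp its median was -0.47. A Pol2Ser5 region higher in DKO lay in 21.3% of similar domains and one higher in HCT116 in 15.0%. Per region the shares were 10.3% and 9.35%, beside 14.9% and 21.0% of all Pol2Ser5 regions.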

How the data were processed

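Reads were aligned with BWA to hg19, and peaks of every target except TotalRNAPol2 were called with MACS2, per the submitters' processing notes; their versions were not given in the sources used here. The deposited tables list regions called in DKO only, HCT116 only or both, with the read density of each line, which is a normalized signal, per the file headers, deposited by the authors. The columns M and A are log2 values deposited by the authors; the deposited p-value and the summit position were not used. The 2 input libraries were not used.

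Whole reads were recovered by fitting M as the log2 ratio of reads plus a line in A, after adding 1 read: 100% of values were whole within 0.05. Slopes were 0.33 for Pol2Ser2, 0.32 for TotalRNAPol2 and between -0.13 and 0.06 for the others. Median reads per window over all regions lay between 24 and 78 in DKO and between 23 and 94 in HCT116; these set the depth, since library totals were not used here. The recovery was tested on simulated data. Tables were normalized separately, so levels were compared only within a table. Counting intervals of M are exact Clopper-Pearson intervals, shares have Wilson intervals and medians order-statistic intervals.

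The domains, classes and lists were chosen with earlier results of these data known. Domains named are the 8 highest and 8 lowest by M with at least 30 reads in a line, the 6 longest, the 5 highest by A, the 5 with M nearest 0 among the 50 longest, and those with most CTCF or Pol2Ser2 regions; runs were picked after seeing values. The planned gene lists were not applied, since the reference tables are of another build than hg19. Alternatives changed the length minimum, the fold, the scaling, the meaning of inside, and which regions or tables were kept. Python 3.11.15, numpy 2.4.6, scipy 1.17.1, pandas 2.3.3 and matplotlib 3.10.9 were used.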

Additional observations from a re-analysis of the deposited data

How the results depend on the processing

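With 1 library per line and target, no replicate could be left out. No paired analysis was possible because each line had 1 library per target. Depth limits single inner regions most, such as the Pol2Ser2 regions of domains higher in HCT116, with a median of 17 reads in DKO. M is read in 1 window per region, so it does not describe the whole of a long domain. Of 93 alternatives 43 gave a like value, 50 a moved one and 0 a reversed one, and the causes were not tested. Only the inner medians could be labelled reversed: counts, shares and the median M of the domains could not. The turn in the balance of directions without the level-dependent scaling was therefore scored as like. The alternatives without chromosomes 4 and 21 and without TotalRNAPol2 were chosen after seeing the data.

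A minimum of 4000, 8000 or 10000 bp gave 4712, 827 or 454 domains. At 4000 bp 13.2% were higher in DKO and at 10000 bp 17.0%, with a median M of 0.061 and 97.8% called in both lines, beside 97.9% at 8000 bp. At 1.5-fold 20.8% were higher in DKO and 24.1% in HCT116, and at 4-fold 7.2% and 7.17%. Of domains called in both lines 14.5% were higher in HCT116. The median M of the domains became 0.12 with constant centring, 0.052 when recentred on all regions and 0.049 with chromosome medians removed. Domains of 8000 bp held CTCF in 93.8%, RAD21 in 99.6%, SMC1 in 99.3%, Pol2Ser5 in 99.4%, Pol2Ser2 in 94.2% and TotalRNAPol2 in 98.9%. Counting only regions wholly inside gave 87.8% for CTCF, 98.0% for RAD21, 90.7% for Pol2Ser5, 81.8% for Pol2Ser2 and 87.3% for TotalRNAPol2. An overlap of 1 bp gave 98.7% for Pol2Ser5 and 98.9% for TotalRNAPol2.

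With constant centring, which moves the median of all regions by 0.13 for CTCF, the inner medians in domains higher in DKO were 0.65 for CTCF, 0.68 for RAD21, 1.04 for Pol2Ser5, 0.74 for Pol2Ser2 and 0.73 for TotalRNAPol2. In domains higher in HCT116 they were -0.58 for RAD21, -2.21 for Pol2Ser5, -1.20 for Pol2Ser2 and -2.14 for TotalRNAPol2. Among regions called in both lines alone, the medians in domains higher in DKO were 0.25 for CTCF, 0.32 for RAD21, 0.26 for SMC1, 0.58 for Pol2Ser5, 0.38 for Pol2Ser2 and 0.46 for TotalRNAPol2. In domains higher in HCT116 they were -0.095 for CTCF, -0.49 for RAD21, -0.29 for SMC1, -1.17 for Pol2Ser5, -0.37 for Pol2Ser2 and -1.03 for TotalRNAPol2.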

Other observations

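The 4 domains with most CTCF regions had H3K27Ac M between -0.61 and 1.17. After the longest domain, chr9:132234356-132270664 held 23 CTCF regions with a median M of 0.09, and H3K27Ac there had 140 reads in DKO against 241 in HCT116 (M -0.61). At chr12:122213208-122242211, with 19 CTCF regions and a CTCF median of 0.70, H3K27Ac had 1615 reads in DKO against 1306 in HCT116 (M 0.30). Among the domains richest in elongating polymerase, chr19:39166887-39192680 held 27 Pol2Ser2 regions with a median of -0.37 and 5 CTCF regions with a median of 1.45, while H3K27Ac had 1801 reads in DKO against 1373 in HCT116 (M 0.38).

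Regions of a target inside 1 domain seldom passed 2-fold in opposite directions. Among domains with several regions of the target this was seen in 8 domains for SMC1 (0.322%), 21 for TotalRNAPol2 (0.958%), 25 for Pol2Ser2 (1.25%), 26 for Pol2Ser5 (1.15%), 28 for CTCF (1.4%) and 36 for RAD21 (1.42%). Most inner regions passed 2-fold in neither direction: of SMC1 regions inside domains 7.11% were higher in DKO and 3.01% in HCT116. These counts therefore do not show how uniform a domain is. The median range of M within a domain lay between 0.81 for SMC1 and 0.99 for RAD21. The run with the most domains, chr9:139697747-139984196, held 14 domains and 122 CTCF regions, with medians of 1.12 for CTCF, 1.07 for Pol2Ser5 and 0.06 for RAD21, although only 4 of its domains were higher in DKO.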
